A study of Mus musculus with 9 samples.

Results

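The Kruppel-like factors examined here are 9 genes, Klf2, Klf3, Klf4, Klf5, Klf6, Klf9, Klf10, Klf11 and Klf13, taken from the heart count table by symbol, with the row of largest total where a symbol repeats. They are 9 of 55401 rows, and 9 of 9 were among the 19051 genes with enough counts to be tested. RNA sequencing of total heart RNA covered 3 groups of 3 libraries. KO-TAC hearts carried c-Myc flox/flox with Tcf21 iCre, a tamoxifen-inducible Cre driven from Tcf21, a gene of cardiac fibroblasts, and were under transverse aortic constriction (TAC), an operation that narrows the aortic arch and raises the pressure against which the heart pumps. TAC hearts were wild type under the same constriction, and both TAC groups are titled 12 weeks. Control hearts were wild type and correspond to the sham-operated mice of the design. All mice were male and 8 to 12 weeks old at operation. Tamoxifen, at 45 mg/kg for 5 days, is described for the knockout line, and the sources used here do not say whether it was also given to wild-type mice. No knockout without TAC and no Cre control was analysed here, so tamoxifen, Cre and loss of Myc cannot be told apart in any comparison with KO-TAC hearts.

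Kruppel-like factors are zinc-finger proteins that bind GC-rich and CACCC-type DNA, and family members differ mainly in the part that recruits activators or repressors. In the heart vessels, Klf2 and Klf4 are induced by laminar blood flow through the kinases MEKK3 and ERK5 and the MEF2 factors, and they keep the endothelium quiescent. Other members answer growth factors, TGF-beta or glucocorticoid hormone, and several behave as fast-response genes whose RNA appears and decays quickly.

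The 250 bases before the start of Klf2, Klf4, Klf6 and Klf9 are printed because these 4 genes carry the patterns described below. They are RefSeq sequences on GRCm38.p6, written 5′ to 3′ on the strand of the gene. Klf2 is at chr8:72318812-72319061 (+ strand), Klf4 at chr4:55532476-55532725 (− strand), Klf6 at chr13:5861239-5861488 (+ strand) and Klf9 at chr19:23140976-23141225 (+ strand). Capitals mark the E-box CACGTG that Myc and its relatives can bind, the half-site TGACG of the cAMP response element on either strand, and the MEF2 site. The CArG box, the site of serum response factor, was searched as well and had no match.
Klf2: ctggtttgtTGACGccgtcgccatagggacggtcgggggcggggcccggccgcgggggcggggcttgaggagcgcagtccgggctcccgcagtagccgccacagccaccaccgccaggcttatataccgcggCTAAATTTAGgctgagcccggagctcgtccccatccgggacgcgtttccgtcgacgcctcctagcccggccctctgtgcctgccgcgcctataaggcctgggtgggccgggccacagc
Klf4: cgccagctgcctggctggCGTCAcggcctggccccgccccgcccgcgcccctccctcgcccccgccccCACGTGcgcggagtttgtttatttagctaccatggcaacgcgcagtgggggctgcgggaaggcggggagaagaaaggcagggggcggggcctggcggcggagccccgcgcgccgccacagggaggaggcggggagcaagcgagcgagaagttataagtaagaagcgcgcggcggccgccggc
Klf6: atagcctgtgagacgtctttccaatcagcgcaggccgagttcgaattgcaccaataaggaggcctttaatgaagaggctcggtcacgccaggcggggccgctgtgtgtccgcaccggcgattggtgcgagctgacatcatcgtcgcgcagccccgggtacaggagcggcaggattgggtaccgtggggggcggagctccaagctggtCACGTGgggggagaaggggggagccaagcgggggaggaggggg
Klf9: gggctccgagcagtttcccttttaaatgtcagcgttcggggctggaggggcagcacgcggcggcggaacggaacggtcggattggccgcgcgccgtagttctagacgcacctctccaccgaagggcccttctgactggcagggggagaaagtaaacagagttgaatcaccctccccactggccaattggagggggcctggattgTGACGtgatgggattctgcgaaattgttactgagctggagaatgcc

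Of the 9 genes, 7 had a promoter in the RefSeq table, which runs from 250 bases before to 50 bases after the start. Both strands of each 300-base window were searched. The E-box was present in 3 of the 7, starting 182 bases before the start of Klf4, 43 bases before that of Klf6 and 214 bases before that of Klf11, and in 7.15% of 32851 promoters of the same length. The half-site TGACG was present in 5 of the 7, against 20.8% of all promoters, and its match in Klf9 lies 46 bases before the start. The MEF2 site occurred in 1 of the 7, 118 bases before the start of Klf2, and in 3.19% of all promoters. The CACCC box was present in 4 of the 7, against 57.5% of all promoters, and the GC box GGGCGG in 6, against 35.7%. The CCAAT box was present in 4, against 37.4%, and the TATA box in 0, against 13.6%. The windows are rich in G and C, with 69.3% in Klf2, 74.3% in Klf4, 63.0% in Klf6 and 63.3% in Klf9, against a median of 52.7%. Motif shares were not compared with promoters of like G and C content. None of these letter matches overlapped a match of another motif searched in the printed sequences. These matches describe letters and do not show that a factor binds there.

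Libraries held 59702513 to 109162107 counts, 21510 to 25001 genes with a count and 23.8% to 38.5% of counts from mitochondrially encoded genes. Hearts of a group differed most under TAC in wild-type mice: the median SD over genes was 0.33 log2 units among KO-TAC hearts, 0.60 among TAC hearts and 0.17 among control hearts. Myc itself, the deleted gene, was at 4.22, 1.87 and 4.75 CPM (counts scaled to a common library size) in KO-TAC hearts, against 8.93, 6.22 and 14.2 CPM in TAC hearts and 2.15, 2.47 and 1.55 CPM in control hearts, a log2 fold change of −1.44 ± 0.41 (SE) for KO-TAC against TAC (edgeR, adjusted p = 0.56). KO-TAC replicate 3 stood apart in the circadian clock genes, with Arntl at 24.9 CPM against 1.29 to 5.76 CPM in the other 8 hearts, and Dbp at 6.59 CPM against 62.5 to 163 CPM. The sources used here give no time of day for tissue collection. Heart muscle markers were also uneven under TAC: the 7 markers summed to 33955 to 62031 CPM in KO-TAC hearts, 10329.6 to 73492 CPM in TAC hearts and 67878 to 69817 CPM in control hearts.

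Levels were compared between the genes per kilobase of exon, as CPM per kb. In KO-TAC hearts Klf2 averaged 21.5 and Klf9 17.7 CPM per kb, with overlapping hearts, followed by Klf6 at 11.9 and Klf4 at 10.7. In TAC hearts Klf2 led with 50.6 CPM per kb, followed by Klf4 at 24.7, Klf6 at 22.2 and Klf9 at 20.2, and each of these neighbours overlapped. In control hearts Klf9 led with 30.6 CPM per kb, above every heart of Klf2 at 19.2, and Klf6 at 13.1 and Klf4 at 11.2 followed. The gene of highest mean on this scale was Klf2 in both TAC groups and Klf9 in control hearts. Klf13, Klf3, Klf10 and Klf11 formed a lower tier in every group, between 3.07 and 4.72 CPM per kb in KO-TAC hearts, 4.06 and 6.07 in TAC hearts and 3.0 and 5.03 in control hearts. Klf5, best known from gut epithelium and smooth muscle, was last in every group, with 0.0439, 0.116 and 0.0550 CPM per kb in KO-TAC, TAC and control hearts.

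**Figure D1:**
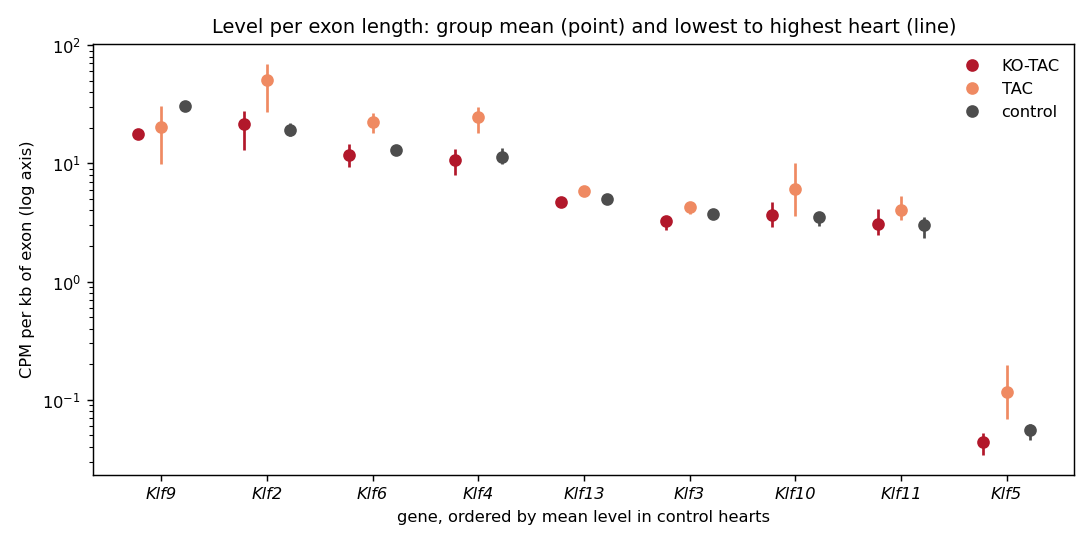
Level of the 9 Kruppel-like factor genes in CPM per kb of exon on a log axis, ordered by the control mean, with the group mean as a point and the lowest to highest heart as a line (n = 3 each). Klf2 has the highest mean in KO-TAC and TAC hearts, Klf9 has it in control hearts, and Klf5 lies far below the rest in all 3 groups.

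Klf2, Klf4 and Klf6 were the members that differed most clearly between wild-type hearts under TAC and either other group. In every one of the 3 genes, TAC hearts lay above all control hearts, and in Klf4 and Klf6 they lay above all KO-TAC hearts too. Set against TAC hearts, the fitted level in KO-TAC hearts was lower by 1.87- to 2.36-fold, and set against control hearts, that in TAC hearts was higher by 1.70- to 2.64-fold. None of the 9 genes passed edgeR's adjusted threshold in any comparison. Whole hearts were sequenced, so fewer cells of a type and less RNA per cell cannot be told apart in any of these values.

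Klf2, the flow-induced endothelial factor (chromosome 8, 72319033 to 72321656 on GRCm38), was at 51.3, 43.9 and 23.8 CPM in KO-TAC hearts, 101, 50.6 and 129 CPM in TAC hearts and 31.6, 40.4 and 34.3 CPM in control hearts. TAC replicates 1 and 3 were high, while TAC replicate 2 lay just inside the range of KO-TAC hearts, and KO-TAC replicate 3 was below every control heart. The log2 fold change of Klf2 for KO-TAC against TAC was −1.24 ± 0.37 (SE; edgeR, adjusted p = 0.605). For TAC against control it was 1.40 ± 0.37 (edgeR, adjusted p = 0.136).

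Klf4, its close relative and one of the reprogramming factors (chromosome 4, 55527143 to 55532466), was at 40.6, 33.6 and 24.1 CPM in KO-TAC hearts, 80.0, 55.2 and 90.6 CPM in TAC hearts and 30.1, 41.0 and 31.7 CPM in control hearts. All 3 TAC hearts were above the other 6, and KO-TAC and control hearts overlapped. The log2 fold change of Klf4 was −1.20 ± 0.26 for KO-TAC against TAC (SE; edgeR, adjusted p = 0.339). It was 1.13 ± 0.26 for TAC against control (edgeR, adjusted p = 0.135).

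Klf6, a fast-response gene of injured tissue and an activator of TGF-beta pathway genes (chromosome 13, 5861482 to 5870394), was at 64.0, 51.5 and 41.0 CPM in KO-TAC hearts, 118, 79.3 and 95.6 CPM in TAC hearts and 53.8, 63.1 and 55.3 CPM in control hearts. The order of groups was that of Klf4, with TAC hearts above the other 6. The log2 fold change of Klf6 was −0.90 ± 0.23 for KO-TAC against TAC (SE; edgeR, adjusted p = 0.449). It was 0.76 ± 0.23 for TAC against control (edgeR, adjusted p = 0.148).

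**Figure D2:**
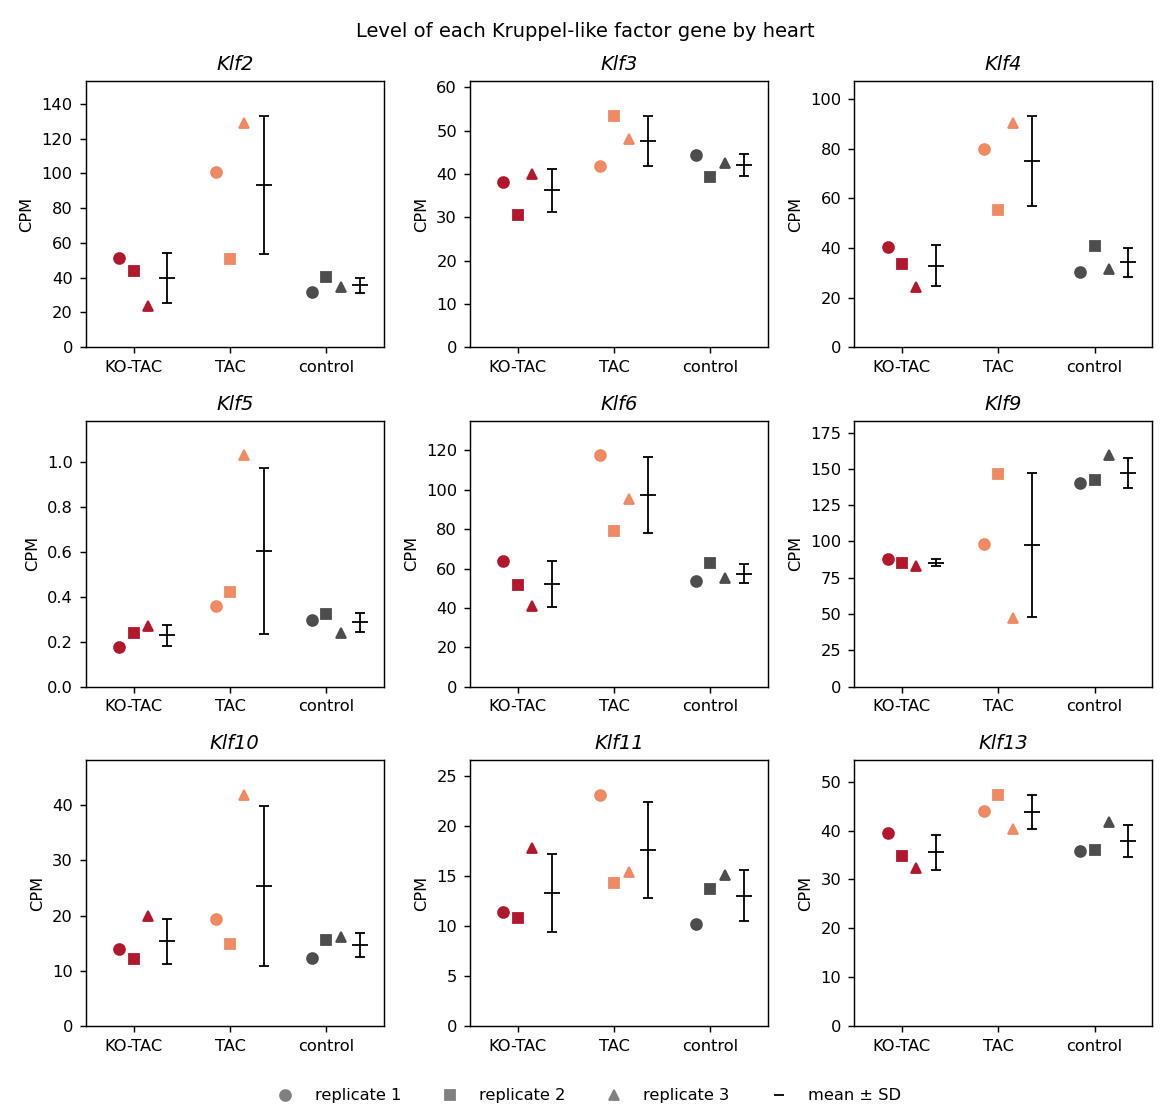
CPM of each of the 9 genes in each heart, with symbols for replicates 1 to 3 and the mean ± SD beside each group (n = 3 each). TAC hearts lie above the other 6 hearts for Klf4 and Klf6, KO-TAC hearts of Klf9 lie between 83.3 and 87.8 CPM and below all control hearts, and TAC replicate 3 is the highest heart for Klf2, Klf4, Klf5 and Klf10.

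Klf10 and Klf11 are the TGF-beta-inducible early genes, repressors that recruit Sin3 corepressors. Klf10 was at 14.0, 12.2 and 19.9 CPM in KO-TAC hearts, 19.4, 14.9 and 41.8 CPM in TAC hearts and 12.3, 15.7 and 16.1 CPM in control hearts. TAC replicate 3 alone stood high, and the other 8 hearts lay between 12.2 and 19.9 CPM. The log2 fold change of Klf10 was −0.73 ± 0.36 for KO-TAC against TAC (edgeR, adjusted p = 0.67) and 0.79 ± 0.37 for TAC against control (edgeR, adjusted p = 0.25). Without TAC replicate 3 these became −0.15 and 0.21. Klf11 was at 11.4, 10.8 and 17.8 CPM in KO-TAC hearts, 23.1, 14.3 and 15.4 CPM in TAC hearts and 10.2, 13.7 and 15.1 CPM in control hearts. All 3 groups of Klf11 overlapped, with log2 fold changes of −0.40 ± 0.27 for KO-TAC against TAC (edgeR, adjusted p = 0.72) and 0.44 ± 0.27 for TAC against control (edgeR, adjusted p = 0.36).

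Klf5, an activator known for smooth muscle and for fibroblasts of loaded mouse hearts, was close to the limit of what these libraries count. It had 24, 17 and 21 counts in KO-TAC hearts, 27, 27 and 89 counts in TAC hearts and 23, 21 and 20 counts in control hearts. In CPM these were 0.177, 0.239 and 0.270 in KO-TAC hearts, 0.359, 0.421 and 1.03 in TAC hearts and 0.297, 0.322 and 0.239 in control hearts. TAC hearts were above both other groups, and TAC replicate 3 was the highest. The log2 fold change of Klf5 was −1.40 ± 0.57 for KO-TAC against TAC (edgeR, adjusted p = 0.66) and 1.08 ± 0.56 for TAC against control (edgeR, adjusted p = 0.29). Without TAC replicate 3 these were −0.76 and 0.43.

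Klf9 ran differently from the other members. It is a glucocorticoid-induced and clock-controlled repressor and was the most abundant member per kilobase in control hearts. Klf9 was at 87.8, 85.3 and 83.3 CPM in KO-TAC hearts, 98.1, 147 and 47.6 CPM in TAC hearts and 140.3, 142 and 159 CPM in control hearts. KO-TAC hearts were nearly equal to each other and all below control hearts, while TAC hearts spanned both groups. The log2 fold change of Klf9 was −0.79 ± 0.35 for KO-TAC against control (edgeR, adjusted p = 0.85), −0.60 ± 0.35 for TAC against control (edgeR, adjusted p = 0.33) and −0.19 ± 0.35 for KO-TAC against TAC (edgeR, adjusted p = 0.86). The fit shares its estimate of spread between the groups, so the SE and p for KO-TAC against control also carry the spread of TAC hearts. The SD of Klf9 was 0.04 log2 units among KO-TAC, 0.82 among TAC and 0.10 among control hearts. TAC replicate 2, the heart with Klf9 at the control level, also had heart muscle markers at the control level, with a median of −0.00 log2 units from the control mean, while TAC replicate 3, with the lowest Klf9, was at −3.77. The corresponding medians were −1.0, −0.46 and −0.20 in KO-TAC replicates 1, 2 and 3, whose Klf9 values did not follow them. KO-TAC replicate 3, which stood apart in the clock genes, had Klf9 at 83.3 CPM, close to the other two KO-TAC hearts. The parts of heart muscle RNA and of the circadian clock in the Klf9 values were not tested.

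Klf13 and Klf3 had the smallest log2 fold changes of the 9 genes for TAC against control. Klf13, a repressor of the same Sin3-binding branch as Klf9, was at 39.5, 34.8 and 32.4 CPM in KO-TAC hearts, 43.9, 47.2 and 40.3 CPM in TAC hearts and 35.9, 36 and 41.7 CPM in control hearts. Klf3, a repressor that works through CtBP, was at 38.2, 30.6 and 40.0 CPM in KO-TAC hearts, 41.8, 53.3 and 48.0 CPM in TAC hearts and 44.3, 39.4 and 42.5 CPM in control hearts. For both genes KO-TAC hearts were below all TAC hearts, by a small margin, while control hearts overlapped both groups. The log2 fold changes for KO-TAC against TAC were −0.30 ± 0.16 for Klf13 (edgeR, adjusted p = 0.69) and −0.40 ± 0.18 for Klf3 (edgeR, adjusted p = 0.67), and those for TAC against control were 0.21 ± 0.16 and 0.18 ± 0.18. Klf3 shares 404 exon bases with Gm20033 on the opposite strand, and the sources used here give no strand setting for the counting, so its value may include reads of that gene.

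Counted over the 9 genes, KO-TAC hearts had the lower fitted level than TAC hearts in 9 of 9, against 49.2% of all genes tested, and the median log2 fold change was −0.73 against 0.01 over all genes. 0 of 9 passed the adjusted p of edgeR, as did 0% of all genes. At an unadjusted edgeR p under 0.05, 4 of 9 were lower (Klf2, Klf4, Klf5 and Klf6), against 4.51% of all genes. KO-TAC hearts did not overlap TAC hearts and were lower in 5 of 9 (Klf3, Klf4, Klf5, Klf6 and Klf13), against 4.8%. DESeq2 called 2 of 9 lower, Klf4 (adjusted p = 0.0069) and Klf6 (adjusted p = 0.020), against 0.615% of genes, and limma-voom with quality weights called Klf2, Klf4 and Klf6 lower, against 1.93%. Without TAC replicate 2, DESeq2 called Klf2, Klf4, Klf6 and Klf10 lower, against 9.96% of genes, and without TAC replicate 3 it called Klf4 (adjusted p = 0.0449), against 0.415%.

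TAC hearts had the higher fitted level than control hearts in 8 of 9 genes, all but Klf9, against 51.5% of all genes tested, and the median log2 fold change was 0.76 against 0.03 over all genes. By edgeR's adjusted p 0 of 9 passed, as did 0% of all genes. At an unadjusted p under 0.05, 3 of 9 were higher (Klf2, Klf4 and Klf6), against 13.2%, and hearts did not overlap and were higher under TAC in 4 of 9 (those 3 and Klf5), against 14.1%. DESeq2 called the same 3 higher, with adjusted p of 0.013 for Klf2, 0.0049 for Klf4 and 0.026 for Klf6, against 5.68% of genes. Limma-voom with quality weights called these 3 and Klf11 higher, against 18.2%, and Klf9 lower, against 19.8%. The count by edgeR depended on TAC replicate 2: without it Klf2 (3.23-fold, adjusted p = 0.011), Klf4 (2.48-fold, adjusted p = 0.011), Klf6 (1.85-fold, adjusted p = 0.021) and Klf10 (2.08-fold, adjusted p = 0.040) were higher, against 13.5% of genes, and Klf9 was 2.03-fold lower (adjusted p = 0.033), against 14%. Without TAC replicate 3, DESeq2 called only Klf4 among the 9 (adjusted p = 0.0297), against 2.14%. With the fitted spread, data simulated for this comparison gave 55 false calls by DESeq2 and 3 by edgeR. The simulation gave each gene the same spread in every group. In the hearts the median SD was 0.60 log2 units under TAC and 0.17 in control hearts. The false calls at such unequal spread were not simulated. Both comparisons use the same TAC hearts, so the lower values in KO-TAC hearts and the higher values over control hearts are not independent of each other.

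KO-TAC and control hearts overlapped in 8 of 9 genes, and the exception was Klf9. Over all genes tested, KO-TAC hearts lay above every control heart in 12.9% and below every control heart in 13.6%. The 1 of 9 is not above these shares. The fitted level was lower in KO-TAC hearts in 6 of 9, against 46.2% of all genes tested, with a median log2 fold change of −0.09 against 0.04 over all genes; with library size alone as scaling it was lower in 2 of 9, with a median of 0.16 against 0.28 over all genes. By edgeR 0 of 9 passed, as did 0% of all genes, and 1 of 9, Klf9, was lower at an unadjusted p under 0.05, against 2.24%. Klf9 was also the 1 of 9 without overlap, against 13.6%, and the 1 that limma-voom with quality weights called lower (adjusted p = 0.023), against 2.8%. DESeq2 without TAC replicate 3, a heart outside this comparison, called Klf9 lower too (adjusted p = 0.0053). That setting was chosen after seeing the data, and the closing section gives its count over all genes. Besides Klf9, log2 fold changes lay between −0.33 for Klf5 and 0.16 for Klf2. The 95% confidence interval ran from −0.66 to 0.99 for Klf2, from −0.65 to 0.52 for Klf4 and from −0.65 to 0.38 for Klf6. KO-TAC replicate 3 was the lowest KO-TAC heart for Klf2, Klf4 and Klf6, and it was the heart that stood apart in the clock genes. Without it the log2 fold changes for KO-TAC against control became 0.42 for Klf2, 0.11 for Klf4 and 0.01 for Klf6, and those for KO-TAC against TAC became −0.97, −1.02 and −0.75.

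**Figure D3:**
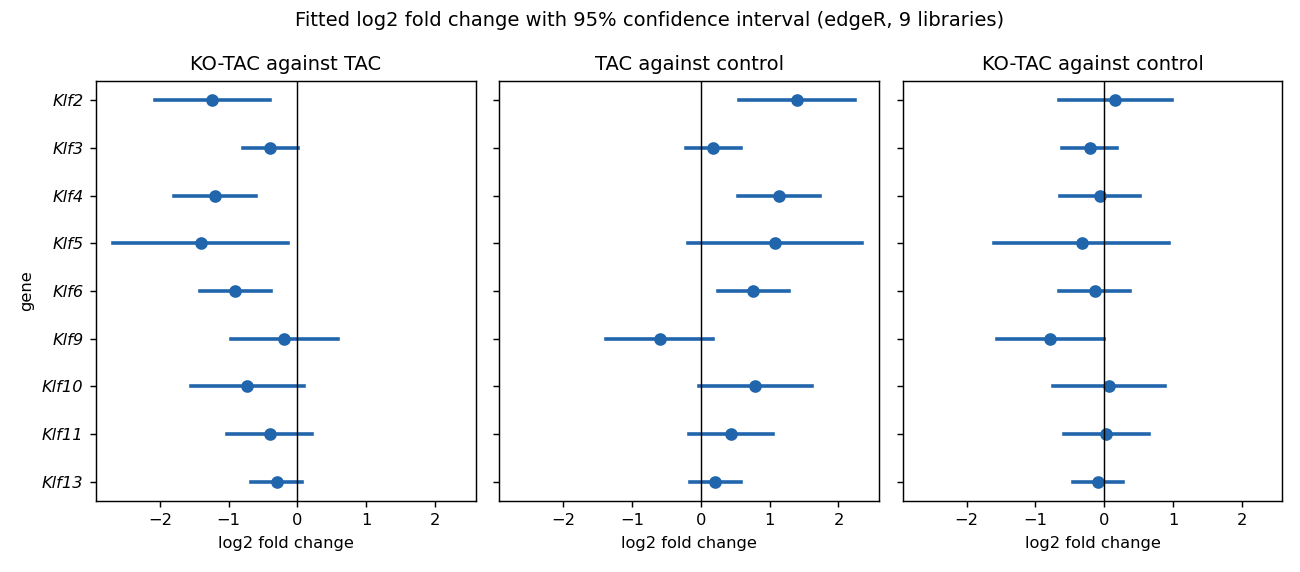
Log2 fold change of each gene with its 95% confidence interval from the edgeR fit over 9 libraries, in 1 panel per comparison. Intervals for Klf2, Klf4 and Klf6 lie below 0 for KO-TAC against TAC and above 0 for TAC against control, and all 3 include 0 for KO-TAC against control.

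Genes of the pathway that induces Klf2 and Klf4 in endothelium went both ways. Of 11 genes for MEKK3, ERK5, the MEF2 factors and the CCM proteins that restrain the pathway, 0 passed edgeR's adjusted p in any comparison. At an unadjusted p under 0.05, 0 did for KO-TAC against TAC, against 7.45% of all genes, and 3 for TAC against control, against 21.3%. DESeq2 called 0 and 1, the latter lower under TAC, against 2.87% of all genes. The summed level of the list was 472 to 620 CPM in KO-TAC hearts, 463 to 599.9 CPM in TAC hearts and 685 to 714 CPM in control hearts, so both TAC groups were below every control heart in this sum. The list's median log2 fold change was −0.01 for KO-TAC against TAC, with 6 of 11 lower, and −0.00 for TAC against control, with 6 of 11 lower. With library size alone as scaling the list's median for TAC against control was 0.33 with 4 of 11 lower, where the median of all genes was 0.29. Mef2a, a MEF2 factor, averaged 119.8 CPM in KO-TAC, 105 CPM in TAC and 189.5 CPM in control hearts, a log2 fold change of −0.86 ± 0.23 for TAC against control (edgeR, adjusted p = 0.14). Mef2d and Heg1, the other list members of highest level, had log2 fold changes of −0.46 ± 0.21 and −0.00 ± 0.39 for TAC against control.

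Endothelial genes known to be induced by Klf2 and Klf4 had their highest fitted levels in TAC hearts. General endothelial markers, described below, moved mostly the same way. Of these 8 markers, 7 were lower in KO-TAC than in TAC hearts (median log2 fold change −0.54). Against control hearts, 7 of the 8 were higher in TAC hearts (median 0.77). Of 5 induced genes tested, 5 were lower in KO-TAC than in TAC hearts (median log2 fold change −0.62) and 5 were higher in TAC than in control hearts (median 1.10). By edgeR 0 passed the adjusted p. In each comparison 3 had an unadjusted p under 0.05, against 4.51% of all genes lower and 13.2% higher. DESeq2 called 1 and 3, against 0.615% and 5.68%. For KO-TAC against control 5 of 5 were higher (median 0.38, against 0.04 over all genes), and 4 of 5 did not overlap, against 12.9% of all genes; 0 had an unadjusted edgeR p under 0.05 and DESeq2 called 0. S1pr1, the receptor for sphingosine 1-phosphate, was at 66.5, 46.1 and 36.4 CPM in KO-TAC hearts, 140.5, 75.8 and 139.8 CPM in TAC hearts and 45.4, 43.6 and 49.0 CPM in control hearts. Its log2 fold change was −1.26 ± 0.30 for KO-TAC against TAC (edgeR, adjusted p = 0.38) and 1.37 ± 0.30 for TAC against control (edgeR, adjusted p = 0.13), and TAC hearts were above the other 6. Thbd, the anticoagulant receptor thrombomodulin, was at 84.5, 68.6 and 56.9 CPM in KO-TAC hearts, 106, 85.1 and 131 CPM in TAC hearts and 51.5, 46.7 and 52.6 CPM in control hearts. Thbd was 1 of the 4 genes whose KO-TAC hearts were all above control hearts, with a log2 fold change of 0.48 ± 0.23 (edgeR, adjusted p = 0.85), and the others were Tek, Nos3 and Gja4. Tek, the angiopoietin receptor, had a log2 fold change of −0.25 ± 0.25 for KO-TAC against TAC and 0.52 ± 0.25 for TAC against control. Genes that Klf2 is known to hold down in endothelium did not run opposite: 5 of 5 were lower in KO-TAC than in TAC hearts (median −0.76), and 4 of 5 were higher in TAC than in control hearts (median 0.96). Among them Edn1, which encodes the vasoconstrictor endothelin 1, had a log2 fold change of −1.03 ± 0.38 for KO-TAC against TAC and 1.19 ± 0.38 for TAC against control (edgeR, adjusted p = 0.65 and 0.16).

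Lists for the signals that other members answer were described in the same way, and 0 of their genes passed edgeR's adjusted p. Over all genes, 4.51% were lower in KO-TAC than in TAC hearts at an unadjusted edgeR p under 0.05, and 0.615% by DESeq2. For TAC against control these shares were 13.2% higher and 8.08% lower by edgeR, and 5.68% higher and 2.87% lower by DESeq2. Early TGF-beta response genes were lower in KO-TAC than in TAC hearts in 7 of 9 (median log2 fold change −0.52) and higher in TAC than in control hearts in 8 of 9 (median 0.71). Of these, 4 were lower and 6 higher at an unadjusted edgeR p under 0.05, and DESeq2 called 1 and 4. Ski, a feedback inhibitor of SMAD signalling, was at 62.2, 63.2 and 62.4 CPM in KO-TAC hearts, 77.2, 93.4 and 98.9 CPM in TAC hearts and 63.2, 67.3 and 70.2 CPM in control hearts, so TAC hearts were above the other 6. Glucocorticoid response genes were lower in KO-TAC than in TAC hearts in 7 of 8 (median −1.40), and 7 of 8 stood higher under TAC than in control hearts (median 1.12), with 5 (all lower) and 6 (5 higher and 1 lower) at an unadjusted edgeR p under 0.05, while DESeq2 called 3 (all lower) and 6 (5 higher and 1 lower). Klf9, a glucocorticoid target, was not higher under TAC, whereas Tsc22d3, a standard marker of glucocorticoid action, was at 107, 75.6 and 37.7 CPM in KO-TAC hearts, 146, 131 and 160 CPM in TAC hearts and 51.1, 60.1 and 54.1 CPM in control hearts. The clock list, which holds regulators of Klf9, was lower in KO-TAC than in TAC hearts in 8 of 14 (median −0.04) and lower in TAC than in control hearts in 8 of 14 (median −0.04); with library size alone these were 6 of 14 and 4 of 14. Among glucocorticoid response genes the exception in both comparisons was Nr3c1, the glucocorticoid receptor gene, with a log2 fold change of 0.45 ± 0.20 for KO-TAC against TAC and −0.61 ± 0.20 for TAC against control.

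Immediate early genes are those that cells switch on quickly after a stimulus. With TMM scaling they had the largest medians of the lists described here for KO-TAC against TAC and for TAC against control. With library size alone as scaling, neutrophil markers had the larger median for TAC against control, 1.91 against 1.81. Immediate early genes were lower in KO-TAC than in TAC hearts in 19 of 19 tested, with a median log2 fold change of −1.57, and higher in TAC than in control hearts in 19 of 19, with a median of 1.43. At an unadjusted edgeR p under 0.05 these were 18 and 16 of 19, against 4.51% and 13.2% of all genes. By DESeq2 they were 15 and 16, against 0.615% and 5.68%. Dusp1, a phosphatase that shuts off MAP kinases, was at 40.8, 34.9 and 29.7 CPM in KO-TAC hearts, 114, 62.5 and 102 CPM in TAC hearts and 40.7, 62.4 and 47.0 CPM in control hearts. Heart by heart, the median of the list relative to the control mean was 0.06, −0.30 and −0.51 log2 units in KO-TAC replicates 1, 2 and 3, 1.73, 0.77 and 1.96 in TAC replicates 1, 2 and 3 and −0.09, 0.28 and −0.11 in control replicates 1, 2 and 3. Klf2 took the same order within each group, with 0.54, 0.32 and −0.56 in KO-TAC hearts, 1.51, 0.52 and 1.87 in TAC hearts and −0.16, 0.20 and −0.04 in control hearts, apart from the nearly equal control replicates 1 and 3. The part of the signals that drive immediate early genes in the values of Klf2, Klf4 and Klf6 was not tested.

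**Figure D4:**
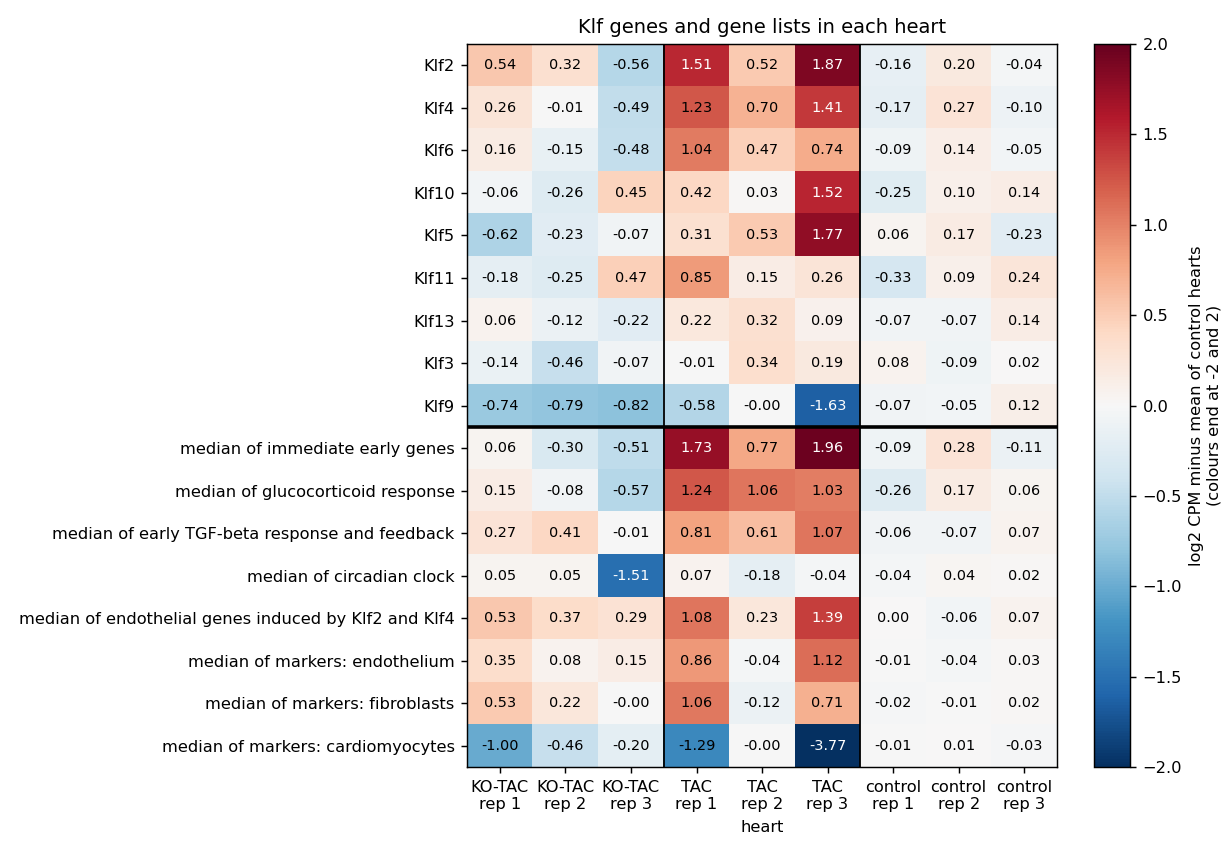
Log2 CPM of each gene, and median log2 CPM of each gene list, minus the mean of control hearts, in each of the 9 hearts; colours end at −2 and 2. Klf2, Klf4 and Klf6 are high in TAC replicates 1 and 3 and less so in TAC replicate 2, as are the immediate early genes, and the clock list stands apart in KO-TAC replicate 3 at −1.51.

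Endothelial markers also differed between TAC hearts. The 8 markers summed to 802 to 951 CPM in KO-TAC hearts, 756 to 1689 CPM in TAC hearts and 812 to 852 CPM in control hearts, and 0 of the 8 had a count of 0 in any heart. Their median relative to the control mean was 0.35, 0.08 and 0.15 log2 units in KO-TAC replicates 1, 2 and 3 and 0.86, −0.04 and 1.12 in TAC replicates 1, 2 and 3. Set against this sum in the same heart, Klf2 made 5.77%, 5.47% and 2.51% in KO-TAC hearts, 7.70%, 6.70% and 7.64% in TAC hearts and 3.83%, 4.97% and 4.03% in control hearts. On this scale every TAC heart was above the other 6 hearts, TAC replicate 2 included, whose endothelial sum was the lowest of the 9. Klf4 made 4.57%, 4.19% and 2.54% in KO-TAC hearts, 6.12%, 7.30% and 5.36% in TAC hearts and 3.65%, 5.05% and 3.72% in control hearts, again with TAC hearts above the rest. For Klf4 the margin was narrow, 5.36% in TAC replicate 3 against 5.05% in control replicate 2, and depends on the markers summed. Kdr, 1 of the 8, was at 265, 127 and 175 CPM in TAC hearts and 210 to 216 CPM in control hearts. Sums of other markers were not tried. Klf6, which many heart cell types express, overlapped on this scale, with 7.21%, 6.42% and 4.32% in KO-TAC hearts, 8.99%, 10.5% and 5.66% in TAC hearts and 6.51%, 7.77% and 6.49% in control hearts. These ratios are descriptions without a test.

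**Figure D5:**
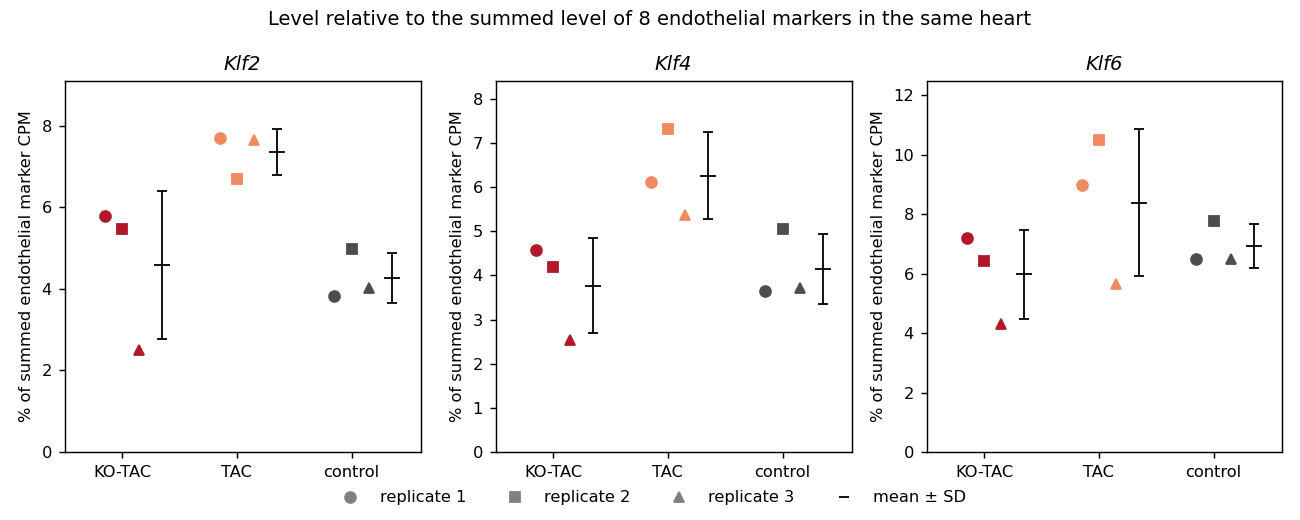
Level of Klf2, Klf4 and Klf6 as a percentage of the summed CPM of 8 endothelial markers in the same heart, with the mean ± SD of each group (n = 3 each). TAC hearts lie above the other 6 hearts for Klf2 and, by a narrow margin that depends on the markers summed, for Klf4, and the groups overlap for Klf6.

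Other cell types that a whole heart holds were summed in the same way. The 6 fibroblast markers summed to 674 to 903 CPM in KO-TAC hearts, 493 to 1249 CPM in TAC hearts and 498 to 529 CPM in control hearts. The 6 macrophage markers summed to 196 to 333 CPM in KO-TAC hearts, 165 to 335 CPM in TAC hearts and 187 to 201 CPM in control hearts. Smooth muscle and pericyte markers ranged over 613 to 779, 486 to 881 and 704 to 753 CPM, and erythroid markers over 839 to 1216, 762 to 3475 and 738 to 1167 CPM, in KO-TAC, TAC and control hearts. In each of these lists TAC hearts spanned the widest range. Neutrophil and lymphocyte markers were near the limit of detection, at no more than 10.1 and 3.11 CPM in sum in any heart, and 1 of 4 neutrophil and 2 of 5 lymphocyte markers had a count of 0 in at least 1 heart. The part of cell composition in the values of the 9 genes was not tested.

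Cofactors that Kruppel-like factors recruit, and the ubiquitin ligases that degrade them, were taken as 1 list. Of 13 such genes 8 were lower in KO-TAC than in TAC hearts (median log2 fold change −0.02), and 8 were lower in TAC than in control hearts (median −0.29, or −0.05 with library size alone). For KO-TAC against control 11 of 13 were lower (median −0.19), or 6 of 13 with library size alone (median 0.03). At an unadjusted edgeR p under 0.05, 6 of 13 passed for TAC against control (2 higher and 4 lower), against 21.3% of all genes, and 0 for KO-TAC against TAC, while 0 passed the adjusted p of edgeR or DESeq2 in either comparison. Ncor1, a nuclear receptor corepressor, was at 61.7, 75.8 and 105 CPM in KO-TAC hearts, 58.5, 88.7 and 61.2 CPM in TAC hearts and 128, 115 and 109 CPM in control hearts. Both TAC groups of Ncor1 were below control hearts, with a log2 fold change of −0.54 ± 0.26 for KO-TAC against control and −0.75 ± 0.26 for TAC against control (edgeR, adjusted p = 0.85 and 0.17).

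Of 5 heart genes reported in mice downstream of single Kruppel-like factors, 4 were lower in KO-TAC than in TAC hearts (median log2 fold change −0.21) and 3 lower in TAC than in control hearts (median −0.10, or 0.24 with library size alone). Thbs4, a matrix protein of loaded hearts, was at 49.2, 26.5 and 5.31 CPM in KO-TAC hearts, 107, 6.54 and 208 CPM in TAC hearts and 2.69, 2.74 and 2.87 CPM in control hearts. Both TAC groups were above all control hearts, and Thbs4 in TAC replicate 2 was lower than in KO-TAC replicates 1 and 2. Igf1, which encodes a growth factor made by fibroblasts and macrophages, had a log2 fold change of −0.75 ± 0.50 for KO-TAC against TAC and 1.22 ± 0.51 for TAC against control (edgeR, adjusted p = 0.72 and 0.22).

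Of the 8 remaining Klf genes 7 were tested. For KO-TAC against TAC 4 of the 7 were lower and 3 higher, where 49.2% of all genes were lower. For TAC against control 5 were higher and 2 lower, where 51.5% of all genes were higher. These tallies include Klf1, Klf8 and Klf14, which were at or under 1.03 CPM in every heart. Klf1 had 0 counts in each control heart and was kept for testing through the other hearts, so its direction against control was fixed in advance. Klf15, a heart muscle and metabolic regulator, was at 28.2, 29.3 and 24.6 CPM in KO-TAC hearts, 25.6, 72.0 and 13.5 CPM in TAC hearts and 41.5, 47.7 and 48.9 CPM in control hearts. Like Klf9, it was below all control hearts in KO-TAC hearts and spread over them in TAC hearts, with a log2 fold change of −0.75 ± 0.48 for KO-TAC against control (edgeR, adjusted p = 0.86). Klf12, a CtBP-binding repressor like Klf3, was at 6.75, 6.06 and 7.54 CPM in KO-TAC hearts, 5.09, 7.32 and 3.06 CPM in TAC hearts and 12.1, 11.7 and 7.87 CPM in control hearts, so both TAC groups were below all control hearts. Its log2 fold change for TAC against control was −1.03 ± 0.32 (edgeR, adjusted p = 0.15; DESeq2, adjusted p = 0.042). Klf7 was between 27.2 and 48.1 CPM and Klf16 between 3.72 and 8.49 CPM over the 9 hearts, with overlapping groups. Both had their highest mean in TAC hearts, with log2 fold changes for TAC against control of 0.15 ± 0.19 for Klf7 and 0.60 ± 0.27 for Klf16 (edgeR, adjusted p = 0.65 and 0.23). Klf7 shares 3196 of its 8131 exon bases with Gm26649 on the opposite strand, so, as for Klf3, its value may include reads of that gene. Klf1, the erythroid member, had 23, 14 and 4 counts in KO-TAC hearts, 23, 3 and 0 counts in TAC hearts and 0 counts in each control heart. Klf8 and Klf14 stayed at or under 1.03 CPM in every heart, and Klf17 had 0 counts in all 9.

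The Sp genes, the nearest relatives of the family, were tested for 4 of 9. All 4 were lower in TAC than in control hearts, with a median log2 fold change of −0.33, and all 4 were lower in KO-TAC than in control hearts, with a median of −0.41, while 3 of 4 were lower in KO-TAC than in TAC hearts, with a median of −0.13. With library size alone as scaling, 3 of 4 were lower than in control hearts in either TAC group. Sp1, the general activator of GC-box promoters, was at 31.6, 31.1 and 36.1 CPM in KO-TAC hearts, 39.9, 28.0 and 27.0 CPM in TAC hearts and 41.7, 36.4 and 34.6 CPM in control hearts, with overlap between all groups.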

How the data were processed

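Trizol was used to extract total heart RNA, and the library kit keeps strand, per the labels' protocols. The deposited values are raw counts by gene symbol; they are whole and show no scaling by the authors. The submitters' processing notes name StringTie 2.2.1, SAMtools 1.15, HISAT2 2.2.1, Trim Galore 0.6.10 and DESeq2 1.42.0, and as builds mm10 and GRCm38. The sources used here do not give the counting tool, its strand setting or how it treated multiply mapped reads. Of 55401 rows, 110 repeat a symbol, and the row with the largest total carried the symbol.

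The main test was edgeR 4.0.16 (R 4.3.3), the quasi-likelihood test glmQLFTest, two-sided, with TMM factors, filterByExpr (minimum count 10), and p adjusted by Benjamini-Hochberg over 19051 genes, called under 0.05. All 9 libraries entered 1 fit with group as its term, and the biological coefficient of variation was 42.1%. The groups share the estimate of spread, so SE, confidence intervals and p for KO-TAC against control also carry the spread of TAC hearts. CPM uses TMM-scaled library sizes, and log2 values a prior count of 2. DESeq2 1.42.0 and limma 3.58.1 (voom) were alternatives, with others named in the closing section. The scripts were tested on data simulated for TAC against control, with 100 genes changed 2-fold and 100 changed 4-fold. At the fitted spread edgeR recovered 4 and 59 of these, with 3 false calls. DESeq2 recovered 27 and 90 with 55 false calls, and limma-voom with quality weights 4 and 59 with 3. Each simulated gene had the same spread in every group, unlike the hearts, so these numbers need not hold for the real groups. Positions and exon lengths are from GENCODE release 21 for mouse, on GRCm38, and exon length is the union of annotated exons. Replicates of a group differed by more than sampling noise (the lowest chi-square per degree of freedom was 23.5). Separate mice per library are not stated in the labels, and p-values thus measure the spread between these samples, which may be technical. Precision is limited by 3 libraries per group: the smallest p of an exact permutation test of 3 against 3 is 0.1, so that test was left out.

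The 9 genes and all 19 other gene lists were chosen with earlier results of these data known. Named genes were the 9 members, Myc, the other tested Klf genes, up to 3 genes of highest CPM per list, and for each member the 2 genes of most similar profile. Of the genes this rule selects, 1 is not reported here. Arntl and Klf17 were named after their values were seen. Some results are described by a list's counts and median because no test of the list was run. Lists can share genes, as Dusp1 is in both the immediate early and the glucocorticoid list. Their counts and medians are therefore not separate readouts.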

Additional observations from a re-analysis of the deposited data

How the results depend on the processing

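By edgeR 0 of the 9 genes passed in each comparison, and 0 of all genes did. Genes of the 9 that passed under other settings, for TAC against control, KO-TAC against TAC and KO-TAC against control in this order, numbered 3, 2 and 0 by DESeq2, 5, 3 and 1 by limma-voom with quality weights, 5, 4 and 0 by DESeq2 without TAC replicate 2, and 1, 1 and 1 by DESeq2 without TAC replicate 3. All genes that passed numbered 1626, 195 and 89 by DESeq2, 7230, 996 and 991 by limma-voom with quality weights, 7134, 3706 and 364 by DESeq2 without TAC replicate 2, and 759, 152 and 320 by DESeq2 without TAC replicate 3. Leaving out each library in turn, edgeR called 0 to 5, 0 to 0 and 0 to 0 of the 9 genes and 0 to 5477, 0 to 13 and 0 to 4 of all genes. For KO-TAC against control all genes passing were 2 with no low-count filter and 30 when only the 2 groups were fitted; the causes were not tested. The settings with DESeq2 and a library left out, and limma-voom without weights, were chosen after seeing the data.

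Signs turned for small differences. For KO-TAC against control the log2 fold change was 0.026 for Klf3, 0.20 for Klf4, 0.13 for Klf6 and 0.16 for Klf13 with library size alone, and −0.090 for Klf10 and −0.11 for Klf11 by limma-voom with quality weights. Leaving out 1 library in turn it ranged from −0.065 to 0.42 for Klf2, −0.25 to 0.11 for Klf4, −0.31 to 0.0091 for Klf6, −0.17 to 0.20 for Klf10 and −0.24 to 0.16 for Klf11. For KO-TAC against TAC, Klf9 ranged from −0.51 to 0.23 and was 0.22 by DESeq2 without TAC replicate 2. For TAC against control 0 signs turned. Library size alone moved the median of all genes to 0.29 for TAC against control and 0.28 for KO-TAC against control.

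The replicate block gave 0 calls of the 9 genes in each comparison. Same-numbered hearts did not deviate together (correlations of −0.25 to 0.12 across genes), so the numbers were not taken as pairs. These are the replicate numbers of the sample titles. The count columns of TAC hearts carry other numbers, and a block by those was not fitted. Of single-gene values, 172 for KO-TAC against control, 176 for KO-TAC against TAC and 169 for TAC against control kept their direction and side of the threshold. Depth limits Klf5, at 17 to 89 counts per heart. For the other 8 genes the spread among 3 hearts is the limit.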

Other observations

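For each of the 9 genes, the 2 genes with the most similar profile over the 9 libraries were sought among 9938 genes with a mean of at least 5 CPM, by the root mean square difference of centred log2 CPM. Nearest to Klf2 were Id1 (0.146), an inhibitor of helix-loop-helix factors induced by BMP signalling, and the immediate early gene Ier2 (0.177). Nearest to Klf4 were Ucp2 (0.114), a mitochondrial carrier, and Slc25a25 (0.167), a calcium-regulated mitochondrial carrier. Klf6 lay nearest to Cdc42ep4 (0.152), an effector of the GTPase Cdc42, and to Gcnt2 (0.172), Klf9 to Ccrl2 (0.155), an atypical chemokine receptor, and Tgfbr3 (0.162), the TGF-beta co-receptor betaglycan, and Klf10 to Klhl26 (0.0865) and Fam43a (0.161). Klf3 lay nearest to Epc1 (0.0873) and Mtmr2 (0.0963), Klf13 to Lats2 (0.100), a kinase of the Hippo pathway, and Zranb1 (0.103), Klf11 to Gsn (0.165), the actin-severing protein gelsolin, and Eps8 (0.187), and Klf5 to Fam78b (0.214) and Adamts9 (0.237). A small difference is easier to reach for genes that vary little, such as Klf3 and Klf13, so the values rank genes within a member and not between members.

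By the same measure Klf4 lay at 0.208 from Klf2 and at 0.213 from Klf6, and Klf9 lay at 1.13 from Klf2. These values describe 9 libraries that share their groups.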
